A study of Mus musculus with 8 samples.

Results

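Interferon-stimulated genes were followed in CD8 T cells that had received short or prolonged antigen stimulation in culture. The 40 genes were taken by symbol from the RNA-Seq table of normalized counts, and all 40 were among its 24303 genes. They comprised 38 classic interferon-induced genes, most of them antiviral, and the apolipoprotein L genes Apol9a and Apol9b. All samples were P14 cells, transgenic CD8 T cells whose T cell receptor recognizes the GP33 peptide of lymphocytic choriomeningitis virus (LCMV). They came from spleens of uninfected male or female mice, received anti-CD3 plus anti-CD28 antibodies for 2 days as activation, were then kept in IL-2 and IL-15, and were sorted as viable CD8 T cells. Effector cells were harvested on day 7. The labels do not give their treatment after the activation, and the study's scheme places this stage at the end of a peptide phase. Acute-2d cells received no peptide after the activation and were harvested on day 19. Acute-7d cells received GP33 peptide until day 7, were then rested, and were harvested on day 19. TDysf cells, labelled dysfunctional, received GP33 peptide repeatedly to day 19 and TGF-β1 in addition from day 7. Each condition had 2 libraries. The activated cells were pooled on day 2 in this protocol, and the libraries of a condition are called biological replicates in the study, without saying whether these were mice or cultures. The p-values measure the spread between these libraries. Neither the labels nor the methods name an infection or an added interferon in these cultures.

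Interferons reach the nucleus by a pair of routes. Type I interferons, such as interferon beta, bind the receptor of Ifnar1 and Ifnar2 and activate a complex that includes Stat2 and Irf9 and binds interferon-stimulated response elements (ISRE). Interferon gamma, a product of activated CD8 T cells themselves, binds the receptor of Ifngr1 and Ifngr2 and acts through gamma-activated sites (GAS). The proteins so induced sense viral RNA, degrade or block it, tag proteins with the ubiquitin-like ISG15, or form GTPase coats on intracellular compartments.

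The promoters are shown first because the 40 genes did not move together. RefSeq promoters (GRCm38.p6, from 250 bases before to 50 after the start of transcription) were matched by symbol for 31 of the 40 genes. The ISRE core was searched as GAAA-NN-GAAA and the GAS core as TTCNNNGAA, where N is any base, both on either strand, and matches of the same or of both motifs may overlap. The ISRE core was found in 18 of the 31 genes (58.1%), against 3.99% of the 27025 genes with a promoter of the same length. The GAS core was found in 10 of 31 (32.3%), against 9.55%. Both were present in 5 genes. By role, the ISRE core was present in 8 of 13 antiviral effectors, in 5 of 6 interferon-inducible GTPases, in both RNA sensors with a promoter and in both Apol9 genes. Neither Irf1 nor Isg20 had it. The GAS core was present in 6 of 13 antiviral effectors and in 2 of 6 GTPases. A match describes letters only and is not evidence of binding.

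**Figure D1:**
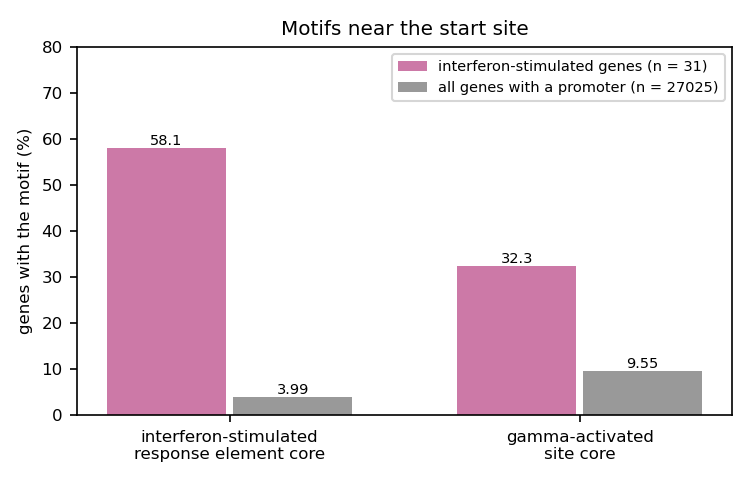
Bars give the percentage of genes (vertical axis, from 0) with at least 1 match to the ISRE core or to the GAS core within 300 bases around the start, for the 31 interferon-stimulated genes with a RefSeq promoter and for all 27025 genes with one. The ISRE core was in 58.1% against 3.99% and the GAS core in 32.3% against 9.55%.

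The stretches upstream of a RefSeq start that hold the matches, with 10 bases on each side, are given for genes of each behaviour described below. Capitals mark every base within a match, and each is read on the strand of its gene. Ifit3, Isg15 and Rsad2 are examples of the antiviral effectors that were high in Effector cells, and Igtp of the GTPases. Irf1 is the transcription factor that was low in both Effector and TDysf cells. Isg20, Apol9a and Apol9b are the genes that were high in TDysf cells. Their positions on GRCm38.p6 were chr19:34583363-34583426 (plus strand) for Ifit3, chr4:156200865-156200906 (minus strand) for Isg15, chr12:26456553-26456582 (minus strand) for Rsad2, chr11:58199501-58199541 (plus strand) for Igtp, chr11:53769914-53769942 (plus strand) for Irf1, chr7:78913341-78913369 (plus strand) for Isg20, chr15:77411114-77411149 (minus strand) for Apol9a and chr15:77729025-77729060 (plus strand) for Apol9b.
Ifit3: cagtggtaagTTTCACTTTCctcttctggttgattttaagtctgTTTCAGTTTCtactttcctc
Isg15: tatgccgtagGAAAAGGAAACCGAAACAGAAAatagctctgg
Rsad2: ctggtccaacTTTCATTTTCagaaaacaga
Igtp: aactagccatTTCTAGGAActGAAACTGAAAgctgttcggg
Irf1: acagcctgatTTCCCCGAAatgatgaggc
Isg20: ctggggagggTTCTTGGAAtttttccttt
Apol9a: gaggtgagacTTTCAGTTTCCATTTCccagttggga
Apol9b: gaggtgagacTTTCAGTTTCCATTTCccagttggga
Ifit3 held 2 separate ISRE cores, and Isg15 held 3 that overlapped. Igtp carried a GAS core followed by an ISRE core. Irf1 and Isg20 had a GAS core and no ISRE core. Other antiviral effectors that were high in Effector cells differed, with both cores in Oas1a, Bst2 and Eif2ak2 and neither in Oasl1. Apol9a and Apol9b had the same 36 bases, with 2 overlapping ISRE cores, and the GENCODE start of each gene lay within this stretch. Genes that were lowest in both TDysf libraries occurred with and without an ISRE core in these windows. Ifih1, Ifit3, Oas3, Rsad2, Bst2, Gbp3, Gbp7, Igtp and Irgm1 had it. Oasl1, Oasl2, Samhd1, Irf7, Irf9, Ifit2, Ifi44 and Xaf1 did not, and of these Samhd1 and Ifit2 had a GAS core.

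Depth and labels were checked before the levels. The libraries held between 19382147 and 24856195 reads by the worth of 1 read, so that 3 reads corresponded to 2.59 to 3.35 normalized counts. The CD8 T cell markers Cd8a, Cd8b1 and Cd3e were at least 6169 normalized counts in every library. The CD8 marker list summed to between 97628 and 207962, against 1057 to 1636 for 3 CD4 T cell genes. The latter sum was nearly all from Zbtb7b, while Cd4 itself was at most 13.0 and Foxp3 at most 49.5. Both Effector libraries and Acute-7d replicate 1 carry the prefix RESUB in their library names, with no explanation of it in the labels. These 3 libraries had Xist, the transcript of the inactive X chromosome, at 53.5 to 115 and the Y-linked Ddx3y at 1334 to 2161, while the other 5 had Xist at 21871 to 30427 and Ddx3y at no more than 2.59, so prefix and sex of the cells coincided and the Acute-7d libraries differed in both. A term for the prefix, which rests on the difference between both Acute-7d libraries alone, left 12 of the 54 calls of a gene in a comparison described below, and ratios within the prefix are given beside them. As sex and prefix coincide, their parts cannot be told apart. Since the Acute-7d libraries differed in sex by these genes, they did not come from the same mouse. For the other conditions this is not given. Differentially expressed genes (DEGs) changed 2-fold or more, with p under 0.05 after Benjamini-Hochberg adjustment over all 24303 genes, in limma's moderated test of log2(normalized count + 1). Fold changes are on that scale, other than those given against a floor of 3 reads, and the scale understates the change of low genes. With 2 libraries against 2, an exact permutation test of a single gene cannot go below a two-sided p of 0.333, so no such test is given. In bulk RNA, fewer cells of a type and less RNA per cell cannot be told apart.

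Most of the 40 genes had their highest mean in day-7 Effector cells, and most, though not always the same ones, had their lowest in TDysf cells. The mean was highest in Effector cells for 28 of 40, against 34.9% of the 12028 genes with a mean of at least 50. It was highest in Acute-2d cells for 8, in TDysf cells for 3 and in Acute-7d cells for 1. The lowest mean was in TDysf cells for 27 of 40, against 29% of all such genes. For 25 of the 40 genes, both Effector libraries were above all 6 others, and this held for 14.6% of all genes. For 20 of the 40, both TDysf libraries were below all 6 others, and this held for 12.0% of all genes. The reverse, both TDysf libraries above all others, was seen for Isg20, Apol9a and Apol9b, 3 of 40 against 11.6% of all genes. Shares of all genes, here and below, are over 24303 genes, of which 12028 had a mean of at least 50, against 39 of the 40. They may therefore understate the share among genes of similar level. Of the Effector libraries, replicate 2 was the higher in 37 of the 40 genes, against 56.2% of the 12028 genes, so the size of the Effector levels differed between its libraries.

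**Figure D2:**
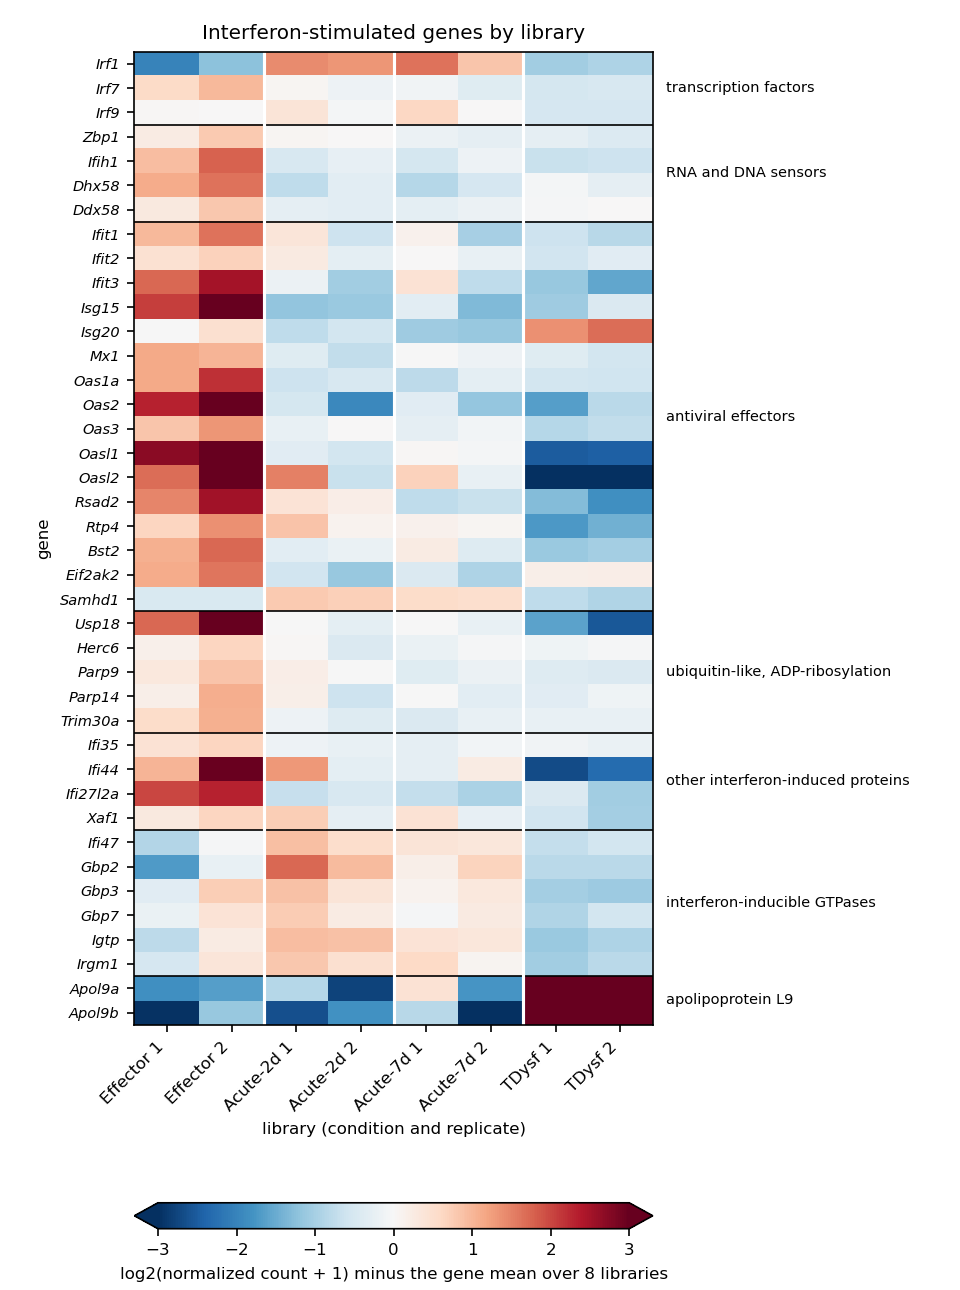
Each row is 1 of the 40 genes, grouped by role, and each column 1 of the 8 libraries. Colour gives log2(normalized count + 1) minus the mean of the gene over the 8 libraries, with the scale ended at 3 in each direction. Red fills both Effector columns for most antiviral genes and both TDysf columns for Apol9a, Apol9b and Isg20. It fills the Acute columns for Irf1, Samhd1 and the GTPases, other than Gbp7 in Acute-7d replicate 1. Effector replicate 2 is also red for Igtp, Irgm1, Gbp3 and Gbp7.

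Effector versus Acute-7d sets day-7 cells against cells that had rested since day 7. Here 17 of the 40 genes were DEGs, 16 higher and 1 lower in Effector cells, against 8.06% of all genes in either direction (4.18% higher and 3.88% lower). The median log2 fold change of the 40 was 0.96, against 0.02 over the 12028 genes with a mean of at least 50. Antiviral effectors gave 10 of the 16 genes that rose, RNA and DNA sensors 2 of 4, and the ISG15 and ubiquitin-like group 2 of 5. None of the 6 GTPases was a DEG in limma's test (1 had an unadjusted p under 0.05), and their median was -0.52.

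Isg15, which encodes the ubiquitin-like modifier, had normalized counts of 725 and 1819 in Effector, 74.8 and 78.8 in Acute-2d, 137 and 67.7 in Acute-7d and 81.1 and 127 in TDysf cells. Both Effector libraries stood far above the other 6, and the log2 fold change was 3.56 ± 0.58 (SE) versus Acute-7d (limma, adjusted p = 0.0257). Usp18, the protease that removes ISG15 and restrains type I interferon signalling, had 408 and 981 in Effector, 123 and 100.4 in Acute-2d, 122 and 106 in Acute-7d and 39.7 and 20.5 in TDysf cells. Its levels formed 3 separate tiers, Effector above both Acute conditions and these above TDysf cells, and it rose by 2.47 ± 0.52 on the log2 scale in Effector versus Acute-7d (limma, adjusted p = 0.0423).

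Oasl1, Oas3 and Oas1a, of the oligoadenylate synthetase family whose active members make the activator of RNase L, were highest in Effector cells as well. Oasl1, an Oas-like protein that restrains Irf7 production, had 163 and 219.7 in Effector, 19.0 and 16.2 in Acute-2d, 24.5 and 23.2 in Acute-7d and 3.45 and 3.56 in TDysf cells. TDysf libraries were at 4 reads each, and Effector libraries were the highest of all, with a log2 fold change of 2.93 ± 0.30 versus Acute-7d (limma, adjusted p = 0.0129). Oas3 had 5102 and 7158 in Effector, 2452 and 2889 in Acute-2d, 2351 and 2679 in Acute-7d and 1563 and 1703 in TDysf cells, again with Effector at the top and TDysf at the bottom. Oas1a had 492 and 1032 in Effector, 145 and 160.5 in Acute-2d, 128 and 182 in Acute-7d and 153 and 147 in TDysf cells, and here TDysf and the Acute conditions overlapped. Of the windows of 100 bases in its transcripts, 40.9% were shared with Oas1g, so its level is uncertain.

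Other antiviral effectors differed in where they ended up in TDysf cells. Ifit3 had 1241 and 2097 in Effector, 331 and 181 in Acute-2d, 503 and 221 in Acute-7d and 169 and 126 in TDysf cells. The Acute-7d libraries lay far apart, and Ifit3 was not a DEG in Effector versus Acute-7d (log2 fold change 2.27 ± 0.55, limma, adjusted p = 0.0566). Ifit3 shared 31.7% of its windows with Ifit3b. Ifit1, of the same family, had 622 and 967 in Effector, 403 and 204 in Acute-2d, 341 and 156 in Acute-7d and 205 and 175 in TDysf cells and missed the threshold as well (limma, adjusted p = 0.0952).

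Rsad2, the radical-SAM enzyme viperin, had 383 and 797 in Effector, 184 and 159 in Acute-2d, 81.4 and 87.8 in Acute-7d and 56.1 and 38.3 in TDysf cells. Bst2, the tetherin that holds virions at the cell surface, had 2764 and 4345 in Effector, 1048 and 1144 in Acute-2d, 1555 and 998 in Acute-7d and 607 and 649 in TDysf cells. For both, the Effector libraries were the 2 highest and the TDysf libraries the 2 lowest. Mx1, of the dynamin-like GTPases, had 3215 and 2969 in Effector, 1140.5 and 868 in Acute-2d, 1448 and 1312 in Acute-7d and 1128 and 999 in TDysf cells. Its TDysf libraries lay between the Acute libraries. Eif2ak2, the RNA-dependent kinase PKR, had 1998 and 2808 in Effector, 618 and 418 in Acute-2d, 688 and 486 in Acute-7d and 1052 and 1067 in TDysf cells, which placed both TDysf libraries above all 4 Acute libraries, and it rose in Effector versus Acute-7d (log2 fold change 2.03 ± 0.29, limma, adjusted p = 0.0208).

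Among the sensors, Ifih1, the RNA sensor MDA5, had 862 and 1537 in Effector, 325 and 379 in Acute-2d, 311 and 406 in Acute-7d and 286 and 295 in TDysf cells. Dhx58, the regulator of RNA sensing LGP2, had 1583 and 2265 in Effector, 431 and 588 in Acute-2d, 403 and 511 in Acute-7d and 696 and 606 in TDysf cells. Both rose in Effector versus Acute-7d, by 1.69 ± 0.30 and 2.06 ± 0.26 on the log2 scale (limma, adjusted p = 0.0305 and 0.017). Their TDysf levels parted, those of Ifih1 being the 2 lowest of all and those of Dhx58 lying above the 4 Acute libraries. Ifi27l2a, a small interferon-induced protein, had 3800.5 and 4679 in Effector, 586 and 680.1 in Acute-2d, 581 and 495 in Acute-7d and 698 and 459.9 in TDysf cells, a clear step between Effector and all others, and rose by 2.97 ± 0.24 (limma, adjusted p = 0.00996). Irf7, the transcription factor that amplifies type I interferon responses, had 2398 and 3159 in Effector, 1673 and 1436 in Acute-2d, 1494 and 1246 in Acute-7d and 1119 and 1141 in TDysf cells and passed the fold limit narrowly (1.01 ± 0.17 on the log2 scale, limma, adjusted p = 0.0272).

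Because the RESUB prefix is shared by both Effector libraries and 1 Acute-7d library, the ratio was also taken within it. Against Acute-7d replicate 1 alone, all 16 genes kept their sign and 15 were at least 2-fold higher, with log2 values between 0.88 and 3.56, although that library also entered the calls. With a term for the prefix the count of 17 DEGs became 3, and of the 17 themselves only Ifi27l2a and Irf1 kept their call. Counts under alternatives can include genes that were not called before. In a fit of the 2 conditions alone the count became 0. The count was 1 without Acute-7d replicate 1, 3 without Acute-7d replicate 2, 3 and 2 without TDysf replicates 1 and 2, 8 without Effector replicate 2, and 9 without either Acute-2d library.

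TDysf versus Effector sets cells at the end of prolonged stimulation against day-7 cells. Here 22 of the 40 genes were DEGs, 19 lower and 3 higher in TDysf cells, against 9.22% of all genes (4.75% lower and 4.47% higher). The median log2 fold change was -1.21, against -0.04 over the genes with a mean of at least 50. Among the antiviral effectors, 12 of 16 fell, with Oasl1 at -5.40 ± 0.30 (42.2-fold lower, limma, adjusted p = 0.00229), Mx1 at -1.54 ± 0.15 (adjusted p = 0.00809) and Isg15 at -3.49 ± 0.58 (adjusted p = 0.0226) on the log2 scale. Rtp4, a chaperone-like regulator of antiviral sensing, had 1761 and 2917 in Effector, 2045 and 1211 in Acute-2d, 1229 and 1183 in Acute-7d and 338 and 416 in TDysf cells and fell by 6.03-fold (limma, adjusted p = 0.0145). Of the sensors, 2 of 4 fell, and of the GTPases none of 6 (2 had an unadjusted p under 0.05). The genes that rose were Isg20, Apol9a and Apol9b. Both Effector libraries and no TDysf library carry the RESUB prefix, so prefix, day of harvest and condition cannot be told apart within these libraries. The count was 1 with a term for the prefix, 3 in a fit of the 2 conditions alone, 4 without TDysf replicate 1, 8 without TDysf replicate 2 and 13 without Effector replicate 2.

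**Figure D3:**
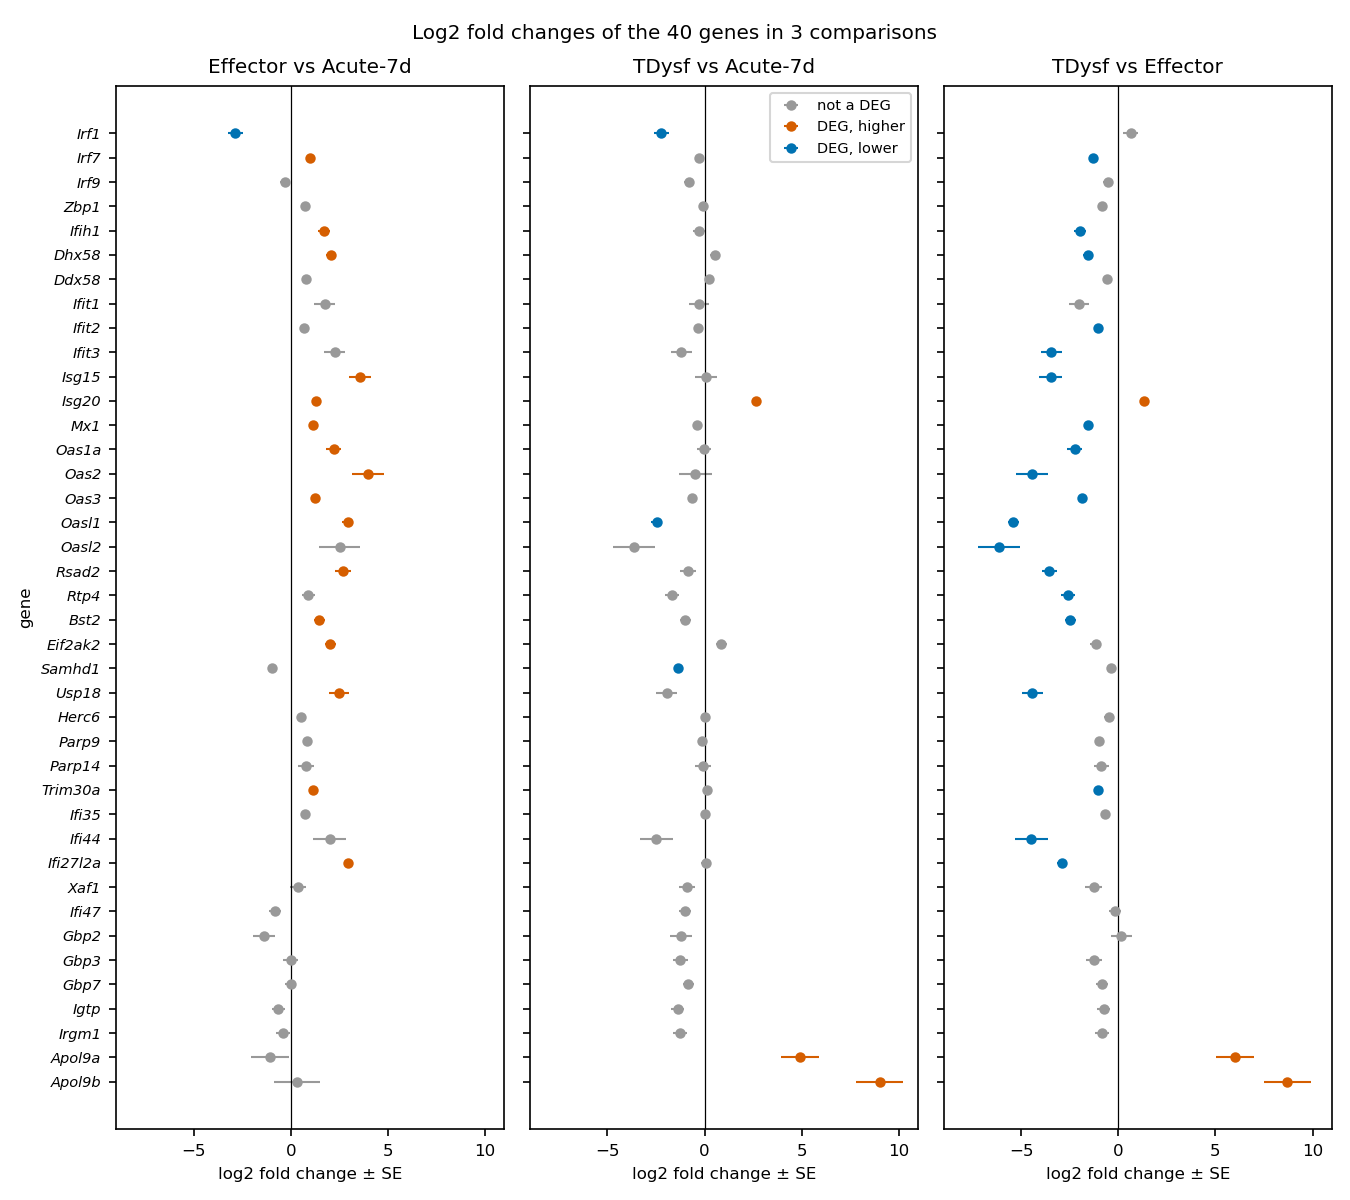
Points give the log2 fold change of each of the 40 genes (rows, by role from top to bottom) in 3 comparisons, with bars of 1 standard error from limma, and colour marks DEGs. In Effector versus Acute-7d 16 genes were higher and 1 lower, in TDysf versus Acute-7d 3 were higher and 3 lower, and in TDysf versus Effector 3 were higher and 19 lower. The comparisons share libraries and are not independent.

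TDysf versus Acute-7d, at the same day of harvest, separates continued from ended stimulation, with TGF-β1 given to TDysf cells in addition. Here 6 of the 40 genes were DEGs, against 5.57% of all genes (2.54% higher and 3.03% lower). Isg20, Apol9a and Apol9b were higher and Irf1, Oasl1 and Samhd1 were lower in TDysf cells. The median log2 fold change was -0.42, against 0.02 over the genes with a mean of at least 50, and 29 of the 40 had a negative value. TDysf versus Acute-2d, where the controls had no peptide after activation, gave 9 DEGs, 3 higher and 6 lower, against 7.35% of all genes (3.14% higher and 4.21% lower). The same 6 genes were among them, and Igtp, Rsad2 and Rtp4 were lower in addition. With libraries rescaled to equal 75th percentiles, which moved the median of genes with a mean of at least 50 by -0.103 and -0.117 here and by -0.133 in Effector versus Acute-7d, the split was 2 higher and 5 lower versus Acute-7d, and 3 higher and 10 lower versus Acute-2d.

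Irf1, a transcription factor that is itself induced by interferon gamma, was lower in TDysf cells than in both Acute conditions, and in Effector than in Acute-7d cells. Its normalized counts were 2332 and 4004 in Effector, 25031 and 23399.9 in Acute-2d, 29014 and 16637 in Acute-7d and 4569.9 and 4888 in TDysf cells. All 4 Acute libraries were above all 4 Effector and TDysf libraries, with log2 fold changes of -2.22 ± 0.36 for TDysf versus Acute-7d (limma, adjusted p = 0.031) and -2.85 ± 0.36 for Effector versus Acute-7d (adjusted p = 0.0178). Irf1 was thus the 1 gene of the 40 that was lower in Effector than in Acute-7d cells by the test. Samhd1, a hydrolase of deoxynucleotides that restricts retroviruses in resting cells, had 13199 and 13177 in Effector, 31031 and 29392 in Acute-2d, 26407 and 25731 in Acute-7d and 10560.2 and 9675 in TDysf cells. Its libraries agreed closely within each condition, and it fell in TDysf versus Acute-7d by 2.58-fold (limma, adjusted p = 0.00388).

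The interferon-inducible GTPases, which act on vacuoles of intracellular pathogens, had higher means in both Acute conditions than in TDysf cells, and 1 of the 6 passed the test, in 1 comparison. All 6 had negative log2 fold changes in TDysf versus Acute-7d, from -1.39 to -0.84, and in TDysf versus Acute-2d, from -2.14 to -1.23. Igtp, an immunity-related GTPase, had 15327 ± 237 (SD, n = 2) in Acute-2d, 10649 ± 333 (SD, n = 2) in Acute-7d and 4068 ± 364 (SD, n = 2) in TDysf cells, and it fell in TDysf versus Acute-2d (log2 fold change -1.92 ± 0.33, limma, adjusted p = 0.0292). Versus Acute-7d it missed the threshold (adjusted p = 0.0732). Gbp2, a guanylate-binding protein, ranged from 9445 ± 3552 (SD, n = 2) in Acute-2d to 2069.8 ± 2.99 (SD, n = 2) in TDysf cells (limma, adjusted p = 0.08 in TDysf versus Acute-2d). Low Gbp2 was not particular to TDysf cells, as Effector cells had 1112 and 3100, the former below both TDysf libraries. Igtp had 4786 and 9651 in Effector cells.

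The count of 6 versus Acute-7d became 3 with a term for the prefix, 3 without either Acute-7d library, 2 without TDysf replicate 1 and 3 without TDysf replicate 2. The count of 9 versus Acute-2d became 2 without Acute-2d replicate 1, 3 without Acute-2d replicate 2, and 2 without either TDysf library. Against Acute-7d replicate 2 alone, which like TDysf carries no RESUB prefix, Irf1, Oasl1 and Samhd1 were at log2 values between -2.43 and -1.35.

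The ligands and receptors upstream of these genes went in different directions. Ifng, encoding interferon gamma, had 569 and 838 in Effector, 311 and 221 in Acute-2d, 859 and 556 in Acute-7d and 3441 and 3230.1 in TDysf cells. Both TDysf libraries were above all others, with log2 fold changes of 2.27 ± 0.31 versus Acute-7d and 3.66 ± 0.31 versus Acute-2d (limma, adjusted p = 0.0208 and 0.00565). Ifng RNA was thus highest in TDysf cells, in which Irf1 RNA was lower than in the Acute conditions. The study reports fewer TDysf than acutely stimulated cells with interferon gamma protein after rechallenge, and describes Ifng RNA and protein as discordant. TDysf cells were taken for RNA under stimulation, and the Acute cells at rest. Of 20 type I and III interferon genes listed, 4 were in the table, and Ifnb1 and Ifna4 were listed at 0 in all libraries. Ifnab did not exceed 3.66, and Ifnz had 14.5 and 14.1 in Acute-7d cells and at most 8.89 elsewhere, with no DEG call (limma, adjusted p = 0.0748 in TDysf versus Acute-7d).

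Ifngr1, the ligand-binding chain of the interferon gamma receptor, had 10320.5 and 9067 in Effector, 16785 and 16641 in Acute-2d, 14966 and 14749 in Acute-7d and 6304 and 6002 in TDysf cells. It was lowest in both TDysf libraries, and the log2 fold change versus Acute-7d was -1.27 ± 0.08 (limma, adjusted p = 0.00416). Ifngr2, its partner chain, had 12.8 and 57.2 in Effector, 283 and 335 in Acute-2d, 71.4 and 108 in Acute-7d and 31.9 and 50.7 in TDysf cells, with no DEG call (adjusted p = 0.41 versus Acute-7d and 0.0741 versus Acute-2d). Ifnar1 and Ifnar2 were no DEGs in any of the 5 comparisons, with means from 2994 to 3905 and from 1542 to 2172. Stat2, of the type I complex, had 2268 and 2950.4 in Effector, 1946 and 1253 in Acute-2d, 1563 and 1233 in Acute-7d and 1359 and 1271 in TDysf cells, with both Effector libraries above the others and an adjusted p of 0.0903 in Effector versus Acute-7d (limma).

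**Figure D4:**
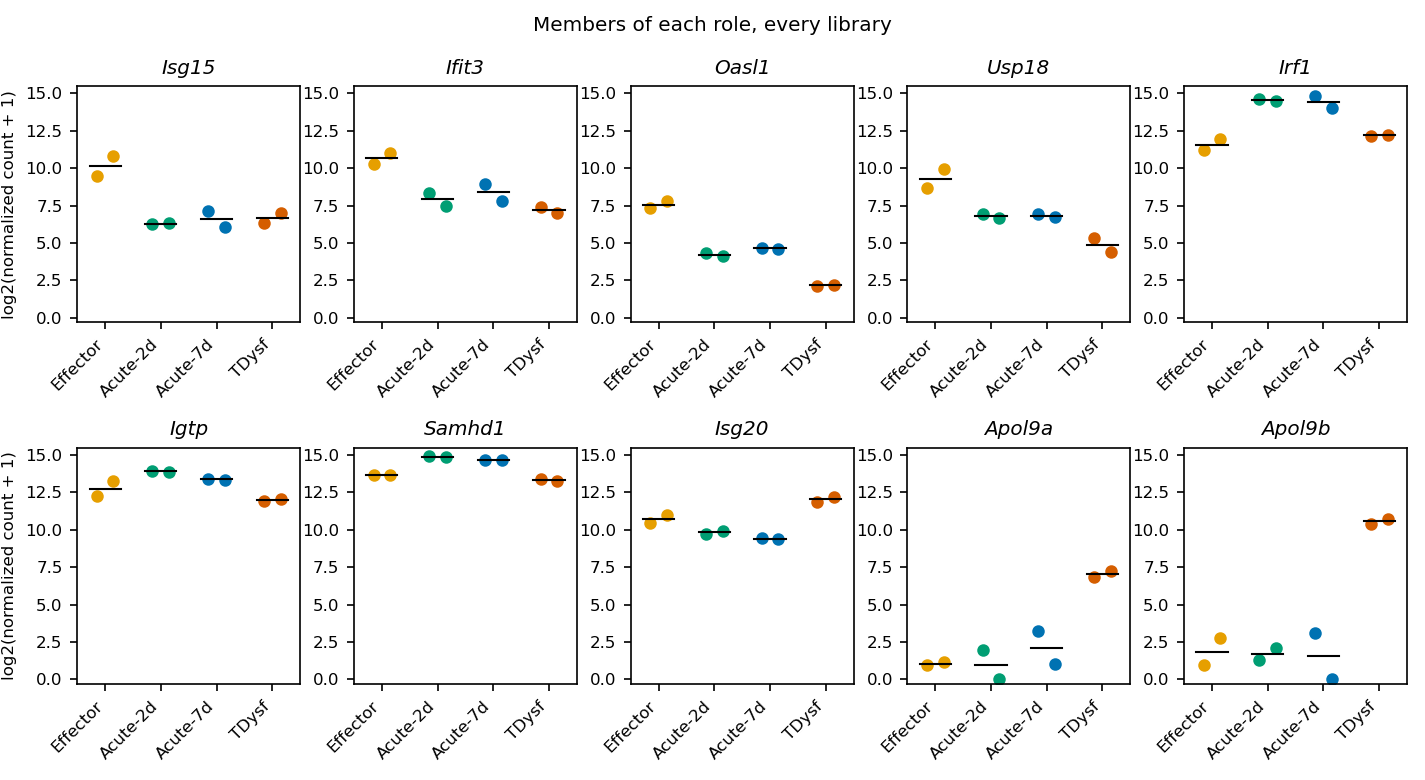
Points give log2(normalized count + 1) in each library for 10 of the genes, lines the mean of the 2 libraries of a condition, on the same vertical axis. Isg15, Ifit3, Oasl1 and Usp18 are highest in Effector cells, Irf1, Igtp and Samhd1 in the Acute conditions, and Isg20, Apol9a and Apol9b in TDysf cells.

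Isg20, an exonuclease of viral RNA, was the 1 classic antiviral gene that was higher in TDysf cells than in each other condition. Its normalized counts were 1425 and 2000.4 in Effector, 854 and 985 in Acute-2d, 688 and 660.4 in Acute-7d and 3753 and 4623 in TDysf cells. The libraries of the 4 conditions did not overlap, in the order TDysf, Effector, Acute-2d, Acute-7d, although Acute-7d versus Acute-2d missed the threshold (limma, adjusted p = 0.753). The log2 fold change in TDysf cells was 2.63 ± 0.20 versus Acute-7d, 2.18 ± 0.20 versus Acute-2d and 1.30 ± 0.20 versus Effector (limma, adjusted p = 0.0054, 0.00645 and 0.0186). The calls versus both Acute conditions held in every alternative tried, with log2 values between 2.03 and 2.78. Versus Effector, the call was lost without either TDysf library, in a fit of the 2 conditions alone and with a term for the RESUB libraries, and the log2 value stayed between 1.06 and 1.55.

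Apol9a and Apol9b, intracellular members of the apolipoprotein L family, rose from near the detection limit. Apol9b (chr15:77729039-77736382, plus strand) had 0.914 and 5.82 in Effector, 1.40 and 3.24 in Acute-2d, 7.36 and 0 in Acute-7d and 1360.3 and 1672 in TDysf cells. Apol9a (chr15:77403789-77411135, minus strand) had 0.914 and 1.21 in Effector, 2.81 and 0 in Acute-2d, 8.26 and 1.01 in Acute-7d and 115 and 147 in TDysf cells. Every TDysf library was far above every other library for both genes, and no other member showed such a step. In normalized counts per kilobase of exons, the mean level in TDysf cells was 833 for Apol9b and 22.0 for Apol9a. It was 2251 for Isg20, 695 for Bst2 and 138 for Isg15, which put Apol9b between Isg20 and Bst2. The GENCODE exon lengths used were 1821 bases for Apol9b and 5953 for Apol9a, while reads were counted over RefSeq transcripts. Part of the gap between both Apol9 genes on this scale thus comes from the annotated lengths.

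Against conditions at or under 3 reads in each library, the mean of Apol9b in TDysf cells was at least 474-fold higher than in Acute-2d cells. That of Apol9a was at least 45.6-fold higher than in Effector and at least 41.0-fold higher than in Acute-2d cells, with the floor of 3 reads taken as the mean over the condition. Versus Acute-7d, the fitted log2 fold change was 9.03 ± 1.21 for Apol9b and 4.93 ± 0.97 for Apol9a (limma, adjusted p = 0.0195 and 0.0473). The Acute-7d libraries held 6.6 and 0 estimated reads of Apol9b and 7.4 and 1 of Apol9a. The longest open reading frames of both genes have 933 bases and are identical at 98.5% of them, with 14 mismatches, and 36.7% of the 100-base windows of Apol9b transcripts and 11.7% of those of Apol9a were shared with the other gene. The split of reads between both genes is therefore uncertain.

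The call for Apol9b versus Acute-7d was kept in 13 of 18 alternatives and lost, among others, without either TDysf library, with a pseudocount of 0.1 and in a fit of the 2 conditions alone. Its log2 values, which depend on the pseudocount, lay between 6.85 and 10.77. That for Apol9a versus Acute-7d was kept in 4 of 17 alternatives, with values between 3.31 and 6.03, and was lost on leaving out any of the 8 libraries. Within the libraries without the RESUB prefix, the log2 difference of Isg20 between TDysf and Acute-7d replicate 2 was 2.66. No such difference is given for Apol9a and Apol9b, since that library held 1 and 0 reads of them.

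Of 11 other apolipoprotein L genes listed, 8 were in the table, and by limma's test none was higher in TDysf than in either Acute condition (3 had an unadjusted p under 0.05 in each comparison, in either direction). Apol7e had 781 and 637 in Effector, 3619 and 3126 in Acute-2d, 3071 and 3194 in Acute-7d and 4809.7 and 4499.6 in TDysf cells, a high level in both Acute and in TDysf cells, and was higher in TDysf than in Effector cells (log2 fold change 2.72 ± 0.13, limma, adjusted p = 0.00159) but no DEG versus Acute-7d (adjusted p = 0.0605). Apol10b was between 14.7 and 32.0 in all libraries, and Apol6 was listed at 0 in all.

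Markers of other cells were read beside these genes. Of 4 plasma cell genes, Igha, Jchain and Sdc1 were also high in TDysf libraries, the sum of the list being 1436 to 1576 there and at most 35.1 in the others, while Mzb1 was at or under 1 normalized count in TDysf cells. Igha alone had 1086 and 1154 in TDysf cells and at most 9.03 elsewhere. Of the B cell genes, Ms4a1 was at most 2.59 in TDysf cells, while Cd79b had 136 and 115 there, 30.1 and 38.4 in Acute-7d and 138 and 83.3 in Effector cells. The sum of the 5 B cell genes was 153 to 168 in TDysf, 55.8 to 68.7 in Acute-7d, 109 to 116 in Acute-2d and 136 to 178 in Effector cells. The sum of 3 NK cell genes stood apart in Acute-7d cells, at 1038 to 1497 against 249 to 567 elsewhere, nearly all from Klrb1c, and its part in the comparisons with Acute-7d was not tested. Of 4 dendritic cell genes in the table, Itgax stood at 3306 and 3212 in TDysf cells. The sum was 3533 to 3730 there, mostly from Itgax, and 411 to 1462 elsewhere. Xcr1 had means of 345 in TDysf and 342 in Acute-7d cells, Zbtb46 had 25.7 and 29.5, and Clec9a did not exceed 2.44 in any library. The part of these genes in the levels of Isg20, Apol9a and Apol9b was not tested. For plasmacytoid dendritic cells, the main producers of type I interferon, the sum of 5 genes was between 200 and 272 in all libraries, nearly all from Tcf4, and Siglech was at most 3.03, so their defining marker was near 0.

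Acute-7d versus Acute-2d addresses the peptide phase after activation, although Acute-7d replicate 1 also differs from both Acute-2d libraries in prefix and sex. None of the 40 genes was a DEG in limma's test, against 0.169% of all genes (0.0782% higher and 0.0905% lower), and 1 of the 40 (Mx1) had an unadjusted p under 0.05. The median log2 fold change was -0.14, against 0.00 over the genes with a mean of at least 50, with a range from -1.01 for Rsad2 to 1.14 for Apol9a. A p above the threshold with 2 libraries each does not show that the levels were equal.

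Further genes of the pathway were mostly lower in TDysf cells where they changed. Of 81 further interferon-stimulated genes in the table, 10 were lower and 0 higher in TDysf versus Acute-7d, against 3.03% and 2.54% of all genes. Versus Acute-2d 16 were lower and 0 higher, against 4.21% and 3.14%, and versus Effector 17 were lower and 1 higher, against 4.75% and 4.47%. In Effector versus Acute-7d 9 were higher and 2 lower, against 4.18% and 3.88%. At an unadjusted p under 0.05 in either direction and with no fold limit, the counts were 39, 45, 46 and 36 of 81. The shares of all genes above are for the DEG threshold and do not apply to these counts. Ms4a4c, an interferon-induced membrane protein of T cells, had 2635 and 3367 in Effector, 2920.4 and 2352 in Acute-2d, 2358 and 3264 in Acute-7d and 25.9 and 23.1 in TDysf cells, near the bottom in TDysf cells and high in all others (-6.77 ± 0.22 versus Acute-7d on the log2 scale, limma, adjusted p = 0.000657). Gbp10 and Slfn5, relatives of the guanylate-binding and Schlafen proteins, fell by 5.62-fold and 6.77-fold in TDysf versus Acute-7d (adjusted p = 0.0129 and 0.0147).

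Mx2, the relative of Mx1, had 249 ± 66.8 (SD, n = 2) in Effector, 26.0 ± 16.9 (SD, n = 2) in Acute-2d, 19.5 ± 11.9 (SD, n = 2) in Acute-7d and 11.4 ± 4.72 (SD, n = 2) in TDysf cells, with Effector far above the rest. It rose in Effector versus Acute-7d (log2 fold change 3.71 ± 0.71, limma, adjusted p = 0.034) and was 20.6-fold lower in TDysf than in Effector cells (adjusted p = 0.0216). Ifi211, of the DNA-sensing Ifi200 family, was lower in TDysf than in Effector cells as well (-4.25 ± 0.78, adjusted p = 0.0286). Socs3, a feedback inhibitor of cytokine signalling, went the other way and was lower in Effector than in Acute-7d cells (-2.02 ± 0.35, adjusted p = 0.0282), where Irf1 was lower too. Of 9 negative regulators in the table, 1 was a DEG in TDysf versus Acute-7d, and of 13 sensor adaptors and kinases none was by limma's test, against 5.57% of all genes. In each of these lists 4 had an unadjusted p under 0.05 with no fold limit, a threshold to which that share does not apply.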

How the data were processed

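RNA-Seq was made from sorted P14 cells, 4 conditions with 2 libraries each. Reads were aligned by the authors to mm10 (STAR), counted over RefSeq transcripts in Partek Flow, and scaled with DESeq2's median-ratio factors. The deposited values are a signal on that scale, called normalized counts. Between 52.3% and 75.7% of values under 1000 reads were whole multiples of 1 read (tolerance 0.02 reads), so no count model was used. Log2(normalized count + 1) was tested in limma 3.58.1 (R 4.3.3, eBayes with a trend), in 1 fit of 24303 genes and 8 libraries with 4 group means, two-sided, with Benjamini-Hochberg adjustment over all genes. The procedure was tested on simulated data. All 40 genes were tested without a filter, and 39 had a mean of at least 50. Genes were named by rule: values per library for Apol9a, Apol9b, Isg15, Ifit1, Ifit3, Irf7, Ifng and at most 20 DEGs with the smallest adjusted p, plus receptors, Stat2 and the 3 pathway genes of largest change per comparison. Igtp, Gbp2, Apol6, Apol10b and the marker genes were chosen after their values were seen. Some genes of the lists are not reported here. The 40 genes, the lists and the tests were chosen with earlier results of these data known. Gene positions are from GENCODE vM21. Values after ± are SE from limma or SD of 2 libraries and reflect the spread between libraries. Floors cover counting error only. Motifs and reading frames were searched with Python 3.11.15 and Biopython 1.88. Alternatives were 2 other pseudocounts, 2 filters, 3 scalings, other fits and leaving out each library.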

Additional observations from a re-analysis of the deposited data

How the results depend on the processing

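Of the 54 calls of a gene in a comparison, 0 reversed in any alternative and 5 held in all: Isg20 and Samhd1 in TDysf versus Acute-7d and versus Acute-2d, and Oasl1 in TDysf versus Effector. For TDysf versus Acute-7d the count of 6 became 13 among genes with a mean of at least 50, 14 among those with a maximum of at least 50, 14 at an unadjusted p, 3 with a term for the RESUB libraries, and 2 to 8 without 1 library. For TDysf versus Acute-2d the count of 9 became 17, 18 and 18 under the first 3 of these and 2 to 13 without 1 library. For TDysf versus Effector the count of 22 became 3 in a fit of the 2 groups alone, 1 with the RESUB term and 4 to 24 without 1 library. For Effector versus Acute-7d the count of 17 became 0 in a fit of the 2 groups alone, 3 with the RESUB term and 1 to 20 without 1 library. The filters test fewer genes, and the fit of 2 groups has fewer libraries. The share of all genes called under each alternative is not given. The counts under alternatives, here and in the Results, therefore cannot be set against it. The other causes were not tested. Acute-7d versus Acute-2d gave 0 in every alternative.

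The replicate numbers were not taken as pairs, since the deviations of same-numbered libraries correlated between -0.199 and 0.197 over 6 pairs of conditions, 2 of them over 0.1. With the replicate block the count of 6 became 3, 9 became 6, 22 became 17 and 17 became 12. The depth limits Apol9a and Apol9b outside TDysf cells, and Oasl1 within them, to a few reads. When a library was left out, the lone library of its condition was assumed to vary like the others.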
